A study of Chlorocebus aethiops with 36 samples.

Results

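The livers of monkeys given an inhibitor of miR-33 for 4 weeks were compared with those of monkeys given a control inhibitor over the same 4 weeks. These were the 12 arrays whose titles give 4 weeks, 6 of each arm, out of 36 arrays in the series. The animals were 12 male African green monkeys, each biopsied at week -5 (baseline, before treatment), at week 4 and at week 12. Anti-miRs are short man-made nucleic acids that pair with a chosen microRNA and keep it from its targets. Both arms received their oligonucleotide under the skin at 5 mg/kg, 2 times a week for 2 weeks and then weekly, so both arms were injected alike. By the labels' protocol all animals ate chow until week 4 and a high carbohydrate, moderate cholesterol diet afterwards, so week 12 differs from week 4 in diet as well as in time. One control array of week 4, replicate 1, nevertheless has the high carbohydrate diet in its own label, and the results below are therefore given with and without it where it matters. Each of the 12 arrays of week 4 is of a different animal. The SEs and the p-values over all genes come from a single fit to all 36 arrays. Each animal appears in that fit at baseline, week 4 and week 12, so these values pool the spread over all times. The exact permutation tests use the arrays of week 4 alone.

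A microRNA pairs through its seed with messenger RNAs, lowers their level or translation, and acts through an Argonaute protein. In primates miR-33 is made from introns of the SREBF2 and SREBF1 genes, whose proteins switch on the synthesis of cholesterol and fatty acids. It is known in liver for holding down ABCA1, the transporter that loads cholesterol onto apolipoprotein A-I to begin high density lipoprotein, and several genes of fatty acid oxidation, among them CROT, a peroxisomal carnitine acyltransferase. The comparison asks which liver messenger RNAs differ once miR-33 has been blocked for 4 weeks on chow.

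Expression was read on a human array (HG-U133 Plus 2.0), whose probes were designed on human transcripts and here met those of another primate. All values are on a log2 scale, all differences are anti-miR-33 minus control with the standard error (SE) of the fit, and levels are compared between animals for a probe set and never between genes. The week 4 arrays read as liver: ALB, TTR and APOA1, proteins secreted by hepatocytes, had medians of 13.835, 14.1 and 14.645. Over all genes the 12 arrays correlated with r between 0.968 and 0.988, and no pair shared more than 2.03% of identical values, so no array was a copy of another. The difference between 3′ and 5′ probe sets of the control genes GAPDH and ACTB, a measure of RNA quality, averaged 1.93 ± 0.52 in controls and 1.96 ± 0.33 in treated animals (SD, n = 6; exact permutation test, two-sided, p = 0.913).

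Control replicate 1, the array with the other diet label, lay at an end of the 12 in several measures. Its 3′ minus 5′ value of 1.09 was the lowest of the 12, against 1.355 to 2.445 in the other 11, and its median correlation with the other week 4 arrays, 0.9754, was the lowest too. Within the control arm alone, replicate 5 had the lowest median correlation (0.9752, against 0.9763 for replicate 1), and it was the highest or lowest of its arm in 45% of genes, against 42.1% for replicate 1. A score was made from 784 genes that differed between week 12 and week 4 in the other 5 control animals, 358 of them higher at week 12. Week 12 differs from week 4 in time as well as in diet, so the score does not read diet alone. The signed mean of these genes lay at -0.03 in control replicate 1, between -0.26 and -0.19 in the controls that defined it, and between -0.27 and -0.12 in the treated animals of week 4. At week 12 it ran from 0.10 to 0.24 over both arms, and at baseline, on chow, from -0.09 to 0.12. The array was thus outside the range of week 4, outside that of week 12 and inside that of baseline. What set this position was not tested.

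**Figure D1:**
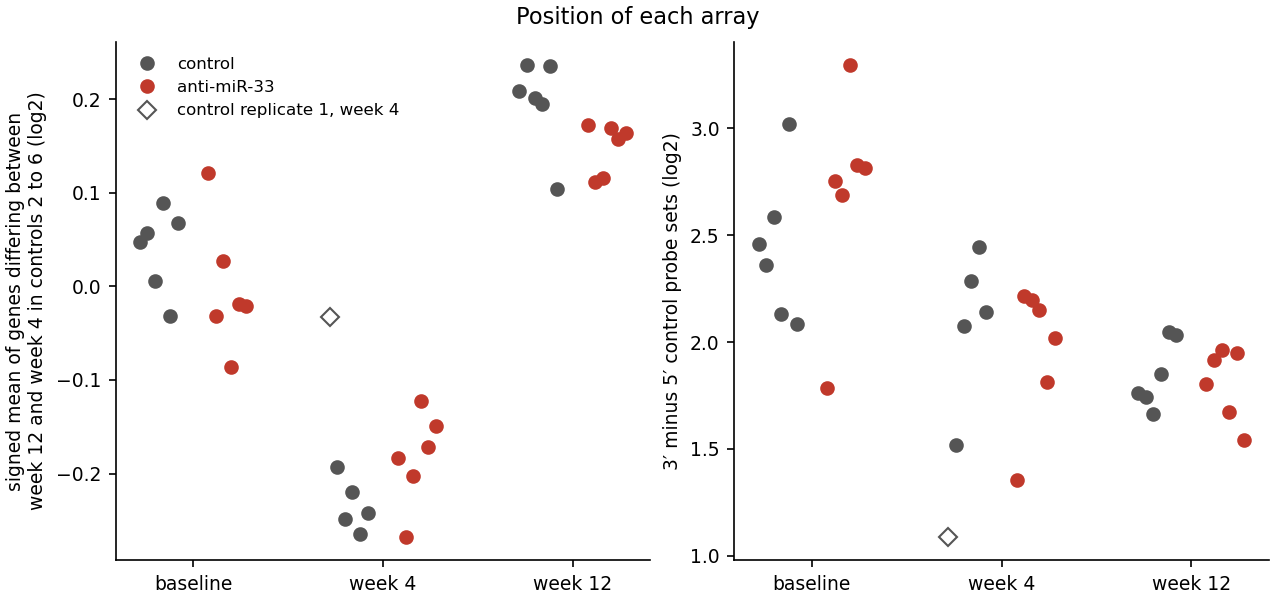
Left, signed mean in log2 of 784 genes that differed between week 12 and week 4 in control animals 2 to 6, for every array by time and arm. Right, the 3′ minus 5′ difference of control probe sets in log2. Points are single arrays, and the open diamond is control replicate 1 of week 4, at -0.03 on the left and 1.09 on the right, the highest and the lowest of its week.

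Of 13634 genes tested at week 4, 0 differed between the arms at an adjusted p under 0.05 (0% of tested genes; limma, Benjamini-Hochberg), and the smallest adjusted p, shared by 10 genes, was 0.417. At an unadjusted p under 0.05 there were 422 genes higher under anti-miR-33 (3.1% of tested genes) and 240 lower (1.76%), together 4.86% of the genes. A fit to the arrays of week 4 alone gave 403 genes at that p (limma), against 662 in the fit to all arrays. The change from baseline to week 4, which takes away differences that stood before treatment, gave 0 genes that differed between the arms (0%), a smallest adjusted p of 0.289, and 478 genes at an unadjusted p under 0.05. The median SE of a difference was 0.10. No gene below therefore passed the test over all genes, and the members of each group are described by their values.

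ABCA1 had a lowest value of 7.41, a median of 7.54 and a highest of 8.11 in the 6 controls, and 7.81, 8.195 and 8.68 in the 6 treated animals. Of the treated animals 4 lay above all controls, and the arms overlapped through control replicate 3 and treated replicates 2 and 5. The difference was 0.55 ± 0.17 (SE), or 1.46-fold, with an adjusted p of 0.998 over all genes and an exact two-sided permutation p of 0.0108 for this gene alone, where 0.00216 is the smallest that 6 against 6 can give. Without control replicate 1 it was 0.50, with an exact p of 0.0216, and with any 1 animal left out it lay between 0.4477 (without treated replicate 4) and 0.64 (without control replicate 3). Before treatment the difference had been -0.06, and at week 12 it was 0.24.

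ABCA1 was higher at week 4 than in the same animal's baseline biopsy in 5 of 6 treated animals and 3 of 6 controls. The mean change was 0.42 ± 0.53 in treated animals and -0.19 ± 0.46 in controls (SD, n = 6). The difference between these changes was 0.61 ± 0.22 (SE; limma, adjusted p = 0.9996).

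CROT ran from 8.03 over a median of 8.255 to 8.5 in controls and from 8.31 over 8.405 to 8.85 in treated animals. Only 2 of 6 treated animals, replicates 3 and 6, lay above all controls, so the arms overlapped more than for ABCA1. The difference was 0.23 ± 0.11 (adjusted p 0.998; exact two-sided permutation p = 0.0519). It depended on single animals: without treated replicate 3 it was 0.16, and the exact p passed 0.05 without control replicate 3 (0.00649), treated replicate 2 (0.0433) or treated replicate 4 (0.0346). Without control replicate 1 it was 0.19, with an exact p of 0.0996.

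The difference of CROT was -0.08 at baseline and 0.35 at week 12, the largest of its 3 values. Against its own baseline, CROT was higher at week 4 in 5 of 6 treated animals (mean 0.23 ± 0.17, SD) and in 2 of 6 controls (mean -0.08 ± 0.14).

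**Figure D2:**
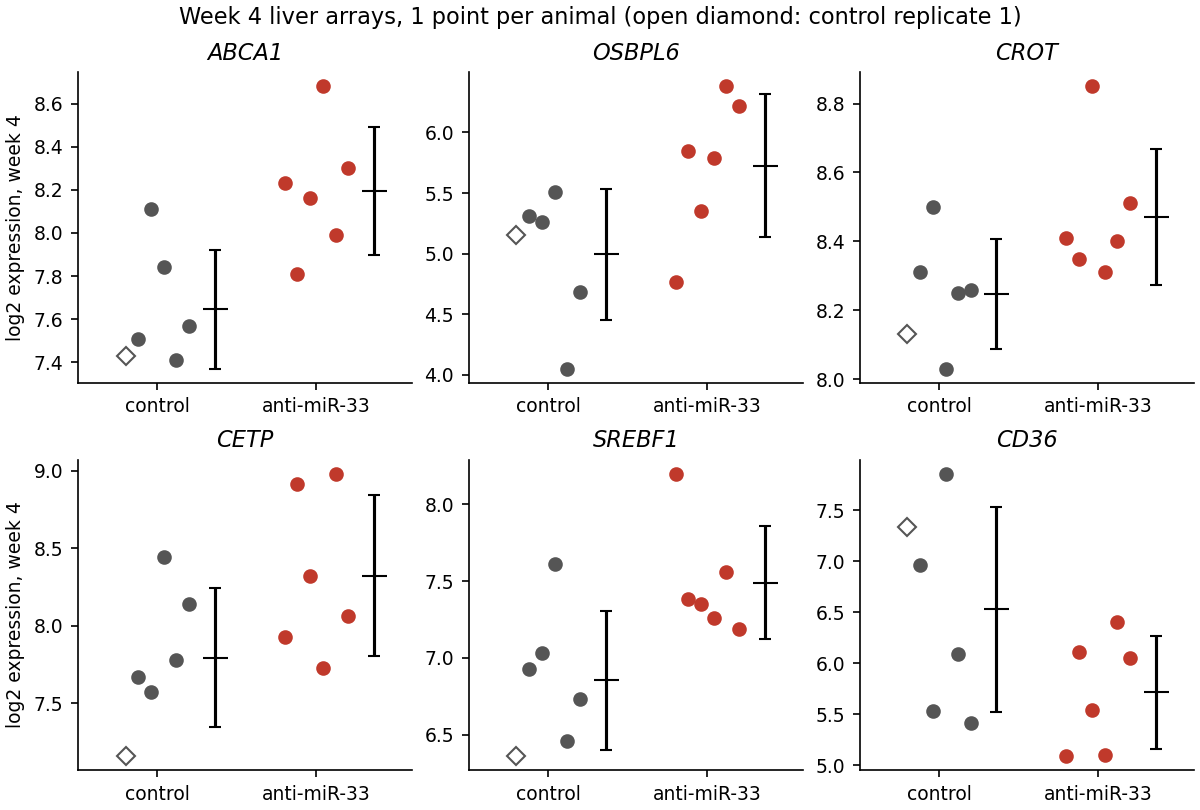
Log2 expression at week 4 in each animal for 6 genes of cholesterol and fatty acid handling, controls in grey and anti-miR-33 in red. The bar beside each group is the mean ± SD (n = 6), and the open diamond is control replicate 1. ABCA1 has 4 treated animals above all controls, while CROT, CETP and SREBF1 overlap more.

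The list of reported miR-33 targets of sterol and bile transport held OSBPL6, ABCA1, NPC1, ATP8B1, ABCB11 and ABCG1, all 6 of them measured. Whether each of them, ABCG1 included, is a target in this species was not tested. By value 4 of 6 were higher, with a median difference of 0.13, against 0.01 over all 13634 genes. The 2 members with an unadjusted p under 0.05 (limma) were OSBPL6 and ABCA1, which also had the largest differences. At baseline the median of the list had been 0.07, with 3 of 6 higher. In the change from baseline to week 4, 3 of 6 were above 0. The mean over the 6 genes lay between 6.96 and 7.09 in treated animals and between 6.655 and 6.957 in controls, so the arms did not overlap, though control replicate 4 nearly reached the lowest treated animal. Of the 31 gene lists used here this was the 1 list whose arms did not overlap in that direction, and 0 lists did so in the other. In a list of 6 this mean rests largely on OSBPL6 (0.73) and ABCA1 (0.55), as the rest lay between -0.04 and 0.14. The mean without them was not taken. The list is made of genes reported as targets and was chosen with earlier results of these arrays in view, so no p is given for it.

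OSBPL6, an oxysterol-binding protein that helps move cholesterol between membranes, had the largest difference of these. It ran from 4.05 to 5.51 in controls (median 5.205) and from 4.77 to 6.38 in treated animals (median 5.82), with 4 of 6 treated animals above all controls and treated replicate 1 among the lower controls. The difference was 0.73 ± 0.26 (adjusted p 0.998), and it had been 0.21 at baseline and was 0.55 at week 12. Another probe set of the gene gave 0.24 ± 0.11. In controls OSBPL6 was lower at week 4 than at baseline in 6 of 6 animals (mean change -0.63 ± 0.23, SD), and in treated animals in 3 of 6 (mean -0.11 ± 0.53).

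NPC1, which releases cholesterol from lysosomes, differed by 0.14 ± 0.11 and had differed by 0.19 before treatment. ATP8B1, a phospholipid flippase of the bile canaliculus, differed by 0.11 ± 0.16, and by -0.06 without control replicate 1. The bile salt pump ABCB11 (-0.02 ± 0.26) and the sterol exporter ABCG1 (-0.04 ± 0.11) were near 0.

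The miR-33 targets of fatty acid oxidation were not shifted as a group: 4 of 9 were higher by value, with a median of -0.07. NRF1, a regulator of mitochondrial genes, differed by 0.23 ± 0.11, with 3 of 6 treated animals above all controls, but its other probe set gave -0.15 ± 0.09. TFAM (0.04 ± 0.09) and HADHB (0.03 ± 0.16), a mitochondrial DNA factor and a subunit of the trifunctional enzyme of beta-oxidation, were near 0. CPT1A, the gate of fatty acid entry into mitochondria, differed by -0.18 ± 0.37 and the fatty acyl-CoA ligase ACSL1 by -0.32 ± 0.17. The list's median turned to 0.04 without control replicate 1, when 5 of 9 members were higher.

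Targets among kinases, insulin signalling and coactivators were split evenly, 6 of 12 higher, with a median of 0.00 and 0 members at an unadjusted p under 0.05. IRS2, an adaptor of the insulin receptor, differed by 0.09 ± 0.34. The subunits PRKAA1 (-0.01 ± 0.16) and PRKAA2 (0.03 ± 0.09) of the AMP-activated kinase, and the deacetylase SIRT6 (-0.04 ± 0.07), were near 0. PCK1 (-0.22 ± 0.22) and G6PC1 (-0.25 ± 0.31), enzymes of glucose output, were lower by value. Without control replicate 1 PCK1 differed by -0.13, and G6PC1 turned to 0.07. With any 1 animal left out PCK1 lay between -0.36 (without control replicate 4) and -0.11 (without treated replicate 1).

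Among 17 tested targets of growth and autophagy, 7 were higher and the median was -0.01. Without control replicate 1, 11 were higher and the median was 0.04, so the group had no settled direction. SIK1, a kinase that restrains gluconeogenic transcription, stood out with a lowest value of 5.80, a median of 6.095 and a highest of 6.14 in treated animals against 5.58, 5.855 and 5.92 in controls. All treated animals but replicate 4 lay above all controls. The difference was 0.24 ± 0.09 (adjusted p 0.998), it had been 0.02 at baseline and was -0.08 at week 12, and another probe set gave 0.15 ± 0.33. ABHD2 (0.25 ± 0.21, with 0.07 and -0.10 from its other probe sets), the phosphatidate phosphatase LPIN1 (0.23 ± 0.13) and the kinase PIM1 (0.21 ± 0.14) were higher by value too.

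The genes that make microRNAs and carry out their effect showed small differences, and their probe sets did not always agree. By value 5 of 21 were higher and the median was -0.05, but it had been -0.09 before treatment, with 4 of 21 higher. No member had an unadjusted p under 0.05 in the probe set used for the test. The processing enzymes DROSHA (0.07 ± 0.08) and DICER1 (-0.05 ± 0.12), and the Argonautes AGO1 (0.04 ± 0.09), AGO2 (-0.07 ± 0.18), AGO3 (-0.12 ± 0.15) and AGO4 (-0.19 ± 0.17), were among them. Other probe sets gave -0.24 ± 0.11 for AGO1, opposite in sign to the value above, and -0.40 ± 0.15 for CNOT8, a deadenylase subunit at 0.06 ± 0.12 in the tested probe set.

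Genes of oligonucleotide uptake and of nucleic acid sensing showed little difference, 9 of 14 higher with a median of 0.04. The sinusoidal scavenger receptors STAB2 (0.15 ± 0.13) and STAB1 (-0.01 ± 0.12), which take up phosphorothioate oligonucleotides, and the hepatocyte lectin ASGR1 (0.09 ± 0.10) did not separate the arms. M6PR, a receptor that sorts lysosomal enzymes, was the 1 member at an unadjusted p under 0.05, at -0.17 ± 0.08. TLR7 (0.12 ± 0.12) and TLR9 (0.09 ± 0.10), sensors of foreign RNA and DNA, differed by about 1 SE or less.

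STAB2 was lower at week 4 than at baseline in 6 of 6 animals of each arm, by a mean of -1.005 ± 0.38 in controls and -0.51 ± 0.35 in treated animals (SD). The arms had differed by -0.35 at baseline. In bulk tissue fewer cells of a type and less RNA per cell cannot be told apart.

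SREBF2 and SREBF1, the hosts of miR-33, bear on whether the source of the microRNA moved. SREBF2 differed by 0.13 ± 0.08, and its 2 other probe sets gave 0.18 ± 0.08 and -0.13 ± 0.10, which disagree in sign. SREBF1 ran from 6.36 to 7.61 in controls (median 6.83) and from 7.19 to 8.20 in treated animals (median 7.365). Of the treated animals 1 lay above all controls, but 5 of the 6 controls lay below all treated animals. The difference was 0.64 ± 0.42 (adjusted p 0.998), with 0.05 at baseline and -0.69 at week 12, and without treated replicate 1 it was 0.50. A second, dimmer probe set of SREBF1 gave 0.04 ± 0.08. INSIG1, which retains the SREBP proteins in the endoplasmic reticulum, differed by -0.37 ± 0.29, and the medians of its arms, 10.63 in controls and 10.72 in treated animals, were in the opposite order to the means.

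Targets of the liver X receptors, the sensors of oxysterols, were 11 of 17 higher with a median of 0.04. CETP, which exchanges cholesteryl esters between lipoproteins, ran from 7.16 over a median of 7.725 to 8.44 in controls and from 7.73 over 8.19 to 8.98 in treated animals. The arms overlapped, with 2 of 6 treated animals above all controls. The difference was 0.53 ± 0.23 (adjusted p 0.998), or 0.41 without control replicate 1, which had the lowest value. CETP was lower at week 4 than at baseline in all 12 animals, with a mean change of -1.94 ± 0.50 in controls and -1.215 ± 0.64 in treated animals (SD), and the arms had differed by -0.19 at baseline.

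CD36, a fatty acid importer, differed in the other direction, by -0.82 ± 0.34, but the gap was there before treatment (-0.72) and at week 12 (-0.93). The liver X receptor targets that export or exchange sterols in bile, ABCG5 (-0.18 ± 0.18) and ABCG8 (-0.22 ± 0.16), were lower by value. APOE (0.07 ± 0.13), PLTP (0.06 ± 0.10), SCD (-0.17 ± 0.38, and 0.01 without control replicate 1) and MYLIP (0.04 ± 0.14) were within 1 SE of 0.

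High density lipoprotein and cholesterol transport as a whole was balanced at the messenger level, 10 of 19 higher, median 0.01. APOA1 (0.00 ± 0.11) and APOA2 (-0.01 ± 0.07), the structural proteins of the particle, the receptor SCARB1 (-0.01 ± 0.11) and the esterifying enzyme LCAT (0.06 ± 0.13) were level. STARD4, a sterol carrier, was lower by value (-0.20 ± 0.12).

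Pathway genes of fatty acid oxidation leaned the other way from CROT at week 4. By value 20 of 30 were lower and the median was -0.13, against -0.02 at baseline. At week 12 the median was 0.09, with 23 of 30 higher. The mean over the list ran from 8.37 to 8.99 in controls and from 8.46 to 8.81 in treated animals, so the treated animals lay inside the range of the controls. PEX11A, a factor of peroxisome division, was the 1 lower member at an unadjusted p under 0.05, at -0.28 ± 0.11, and CROT the 1 higher member. PPARA, the receptor that drives the pathway, differed by -0.26 ± 0.13, ACADL by -0.24 ± 0.17 and ECI2 by -0.45 ± 0.35. Without control replicate 1 the median was -0.07.

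Fatty acid synthesis was 11 of 16 higher with a median of 0.07, led by SREBF1, with ACSS2 (0.27 ± 0.18) and FASN (0.26 ± 0.68) behind it. The median of the synthesis genes was -0.01 without control replicate 5. Cholesterol synthesis was 8 of 17 higher with a median of 0, and NSDHL, a late enzyme of the pathway, was its member of smallest p at 0.40 ± 0.17. Another probe set of NSDHL gave 0.15 ± 0.12 at week 4 and 0.37 at baseline. In bile acid synthesis and transport 10 of 17 were higher, with CYP27A1, the sterol hydroxylase, at 0.15 ± 0.07. ABCB4, the phospholipid exporter of bile, was the lowest at -0.58 ± 0.33, with 3 of 6 treated animals below all controls.

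The genes induced by interferon were the list furthest from 0 at week 4. By value 22 of 26 were lower in treated animals and the median was -0.16, while at baseline 15 of 26 were higher and the median was 0.01. At week 12, 1 of 26 was higher and the median was -0.19. The list mean ran from 6.27 to 6.71 in controls and from 6.10 to 6.55 in treated animals, so the arms overlapped, and control replicates 3 and 4 and treated replicate 4 lay at the ends. The median was -0.17 without control replicate 1 and between -0.20 and -0.12 with any 1 array left out. These genes were read in the same 12 animals, so their number is not that of independent observations.

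Within the interferon genes IFIT2, which binds foreign RNA, differed by -0.29 ± 0.12, HERC6 by -0.51 ± 0.23 and USP18, which removes ISG15 from proteins, by -0.18 ± 0.09, each at an unadjusted p under 0.05. HERC6 ran from 6.61 over 6.83 to 7.82 in controls and from 6.15 over 6.50 to 7.03 in treated animals, and its high control values were those of replicates 3 and 4. IRF7, a transcription factor of the same response, was the highest of the 4 members above 0, at 0.33 ± 0.15 with 4 of 6 treated animals above all controls. Of the other cell type lists, plasma cell markers were 6 of 7 lower with a median of -0.09 and lymphocyte markers 9 of 14 lower with a median of -0.01. Their part in the interferon values was not tested.

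**Figure D3:**
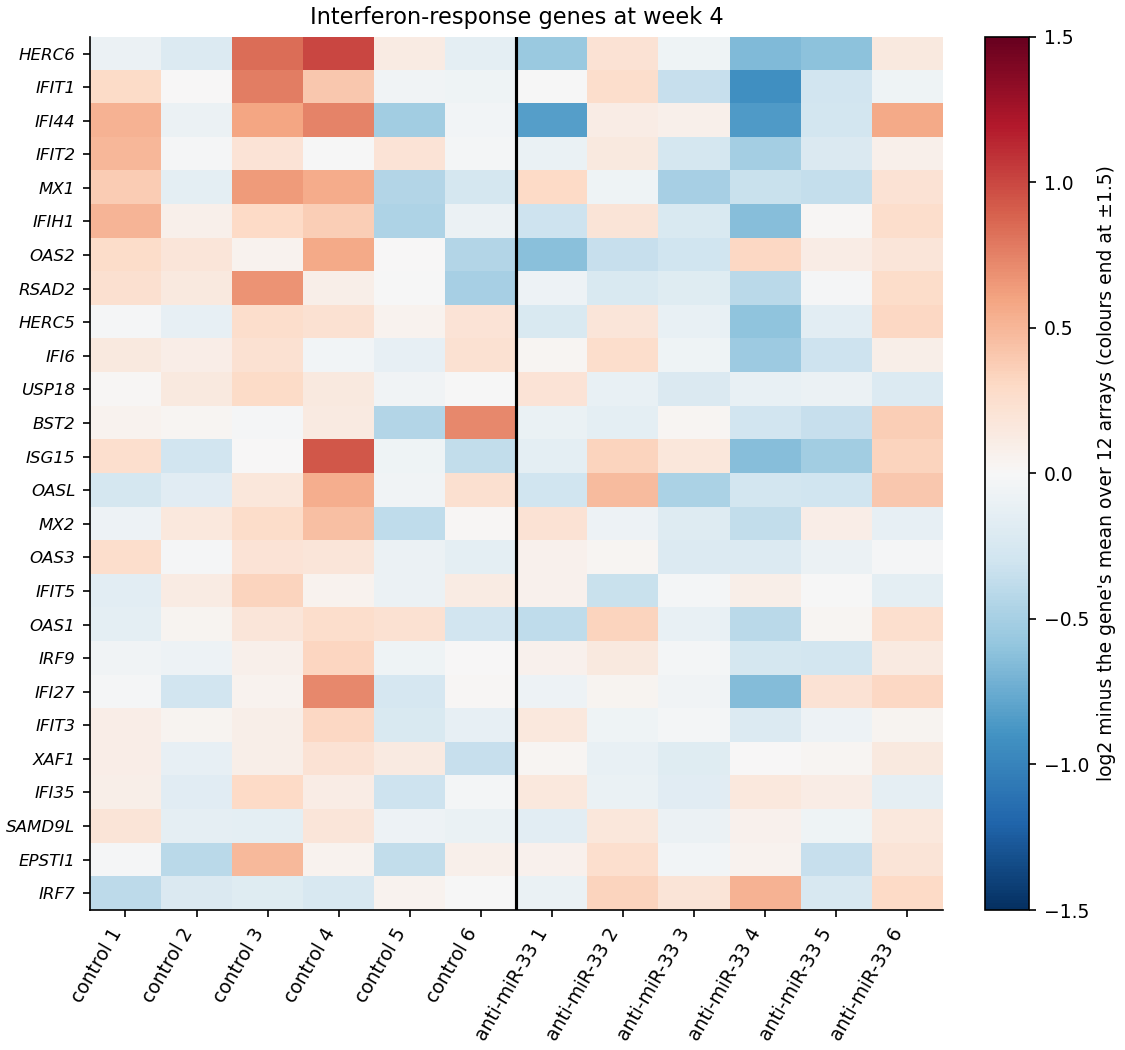
Each of the 26 tested interferon-response genes (rows, ordered by their difference) in the 12 animals of week 4 (columns), as log2 minus the gene's mean over the 12 arrays. Control replicates 3 and 4 are red in most upper rows and treated replicate 4 is blue, while IRF7 in the bottom row is higher in treated animals by value.

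Among cell type lists the hepatocyte markers were level, 10 of 17 higher with a median of 0.01, and their mean ran from 11.50 to 11.74 in controls and 11.49 to 11.72 in treated animals. Endothelial markers were 13 of 18 higher with a median of 0.09, against 5 of 18 and -0.10 at baseline. Their mean ran from 6.03 to 6.67 in controls and 6.10 to 6.45 in treated animals. Control replicate 4 was the highest, and without it the list's median was 0.22. PLVAP, a protein of fenestral diaphragms (0.22 ± 0.09), and the receptor FLT1 (0.29 ± 0.13) had an unadjusted p under 0.05, while the defining markers PECAM1 (0.08 ± 0.14) and VWF (-0.07 ± 0.19) did not separate the arms. Other probe sets of FLT1 gave 0.035 ± 0.11 and 0.14 ± 0.09. Cholangiocyte markers were 7 of 7 higher with a median of 0.09, against 5 of 7 and 0.02 at baseline. Their mean ran from 6.08 to 6.47 in controls and 6.13 to 6.60 in treated animals. EPCAM carried the largest of these differences, 0.57 ± 0.29, and it had been 0.56 before treatment. The defining cholangiocyte marker KRT19 was below the filter on dim probe sets. Macrophage markers were 6 of 11 higher, with a median of 0.05, which was -0.01 without control replicate 1 and -0.06 without control replicate 3.

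KIT, in the endothelial list and a receptor of mast cells and progenitors, had the smallest p of all genes for the difference in change, 1.28 ± 0.26 (limma, adjusted p = 0.289). With the animal as a fixed block, which compares each animal with its own baseline, the adjusted p was 0.0183. Most of the difference was a gap at baseline. KIT was at 6.47 to 7.76 in controls and 5.42 to 6.61 in treated animals before treatment, a difference of -0.94, and at 4.70 to 5.62 and 5.38 to 6.09 at week 4, a difference of 0.34 ± 0.20. It was lower at week 4 than at baseline in 6 of 6 controls (mean change -1.71 ± 0.37, SD) and 5 of 6 treated animals (mean -0.43 ± 0.49).

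Across the 31 lists together, 458 different genes were tested. Of them 3.28% were higher and 2.18% lower at an unadjusted p under 0.05, close to the 3.1% and 1.76% of all genes. The medians of the lists ran from -0.16 (interferon response) to 0.13 (sterol and bile targets), and 0 lists held a gene that passed the test. Acute phase genes were 14 of 18 higher with a median of 0.03, oxidative phosphorylation 14 of 23 with 0.05, and immediate early genes 12 of 17 with 0.09. Before treatment these lists, in the same order, had 14, 6 and 10 members higher, with medians of 0.05, -0.05 and 0.135. Without treated replicate 4 the medians of acute phase and immediate early genes were -0.02 and -0.03. Glucose metabolism and insulin signalling was 11 of 24 higher with a median of -0.03, and the genes of triglyceride handling 11 of 25 with -0.01. Without control replicate 1 these medians were 0.02 and 0.03. In the cell cycle 13 of 18 were lower with a median of -0.05, and RRM2, which makes deoxyribonucleotides, was lowest at -0.77 ± 0.35.

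**Figure D4:**
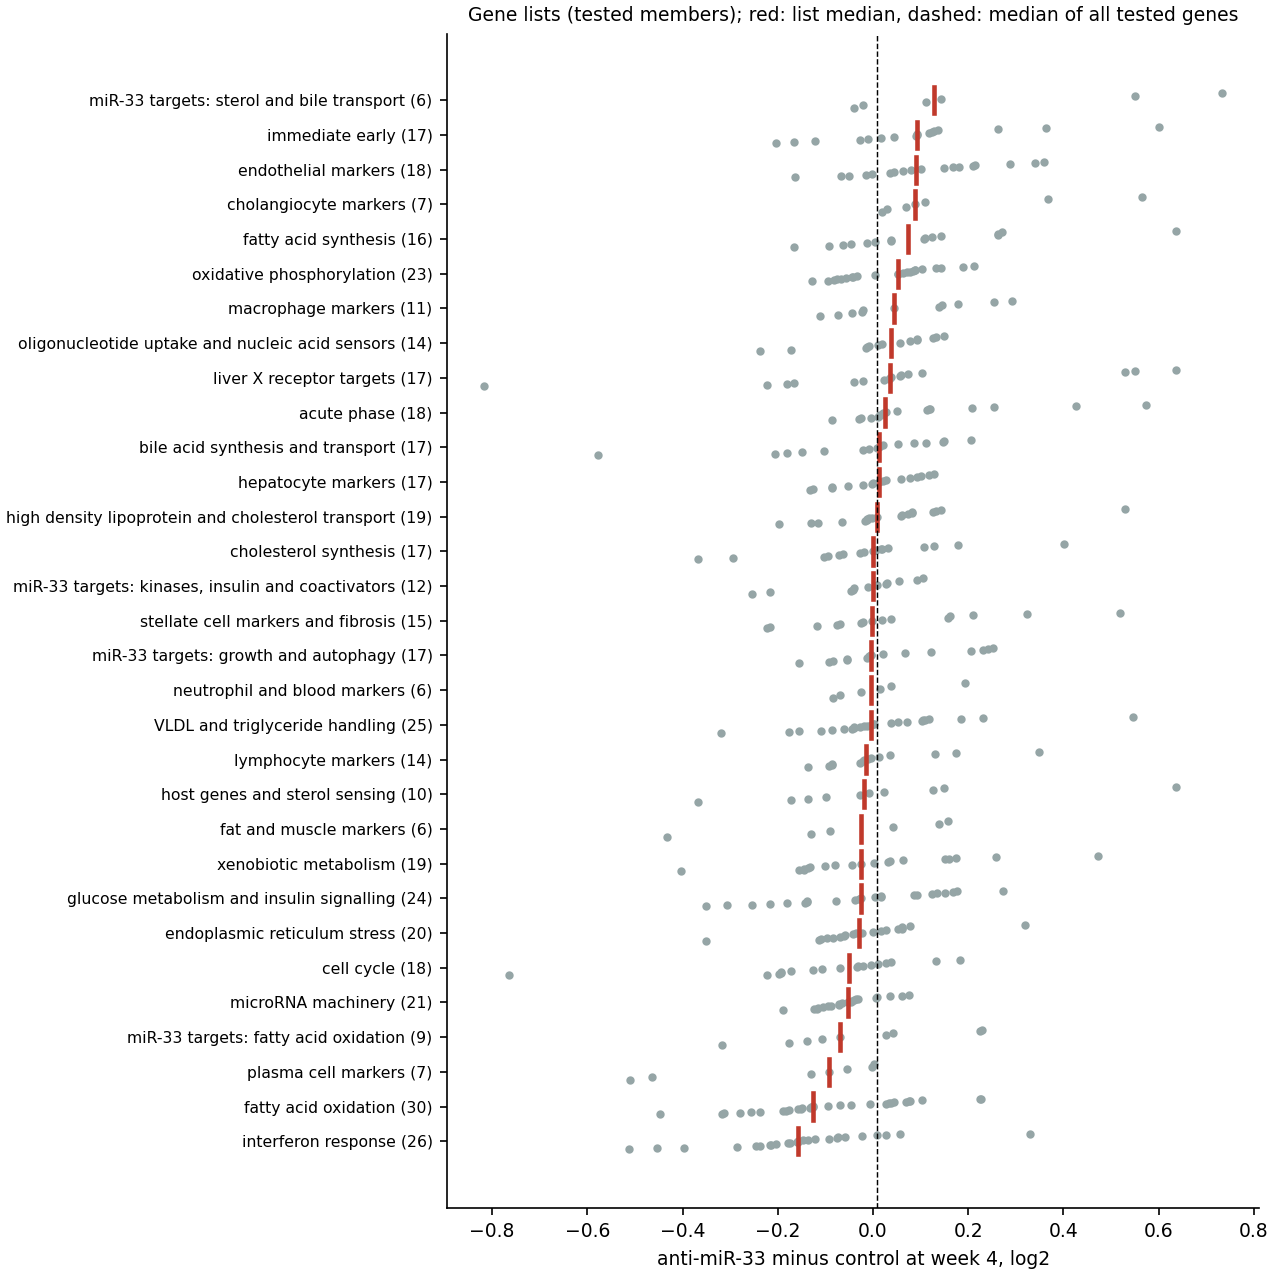
Difference between arms at week 4 in log2 of each tested member (grey points) of the 31 lists, with the number of tested members in brackets. Red bars are list medians, from -0.16 (interferon response) to 0.13 (sterol and bile targets), and the dashed line is the median of all tested genes, 0.01.

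The genes of smallest p lay outside the lists of miR-33 targets. The 10 that share the adjusted p of 0.417 (limma) were ASAP3, SELENOW, PIN4, FER1L4, SLC15A4 and GPR78, which were higher by value, and LCIIAR, GRK3, PYROXD1 and TBX3, which were lower. Being picked for their p, they are given as a description. The choice did not use the arm differences at the other times, although the spread behind each p was pooled over all times. Those differences are given beside the week 4 values. Of the 24 genes of smallest p, 12 in each direction, 9 had at baseline at least 50% of their week 4 difference, 8 had it at week 12, and 18 had the same sign at baseline. For 12 of the 24 both gaps were under that share. The same counts were not made over all tested genes. Some genes lay close to the cut, with baseline shares of 46% for TBX3, 47.1% for SAMD13 and 51.4% for SHANK1. The genes were picked at week 4, so smaller differences at other times are partly set by the choice.

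Gaps that already stood before treatment are seen in GRK3, a kinase that desensitises receptors, with a difference of -0.55 before treatment, -0.54 at week 4 and -0.45 at week 12, and in SELENOW, a selenoprotein, with 0.41, 0.45 and 0.45. SULT1A1, a sulfotransferase of phenols and drugs, gave 0.46, 0.47 and 0.40. For these genes the difference in change from baseline was 0.00 ± 0.17, 0.04 ± 0.14 and 0.01 ± 0.16, so in these probe sets the arms differed by about as much before the first dose as after. The 2 other probe sets of GRK3 did not carry its gap, with -0.11 and 0.11 at baseline and -0.16 and -0.10 at week 4. The other probe set of SELENOW gave 0.37 at baseline and 0.24 at week 4.

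Other genes had no gap at baseline. PIN4, a prolyl isomerase, had a difference of 0.00 before treatment, 0.35 ± 0.09 at week 4 and 0.40 at week 12. At week 4 its treated animals lay at 9.36 to 9.56 and controls at 8.77 to 9.41, so 5 of 6 treated animals lay above all controls. A second probe set of PIN4 gave 0.32 ± 0.08 and the last, much dimmer, -0.02. PLAAT2, a phospholipase and acyltransferase, had -0.12, -0.56 and -0.70 at the same times, but its 2 other probe sets gave 0.04 and 0.14 at week 4.

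The 12 genes with under 50% of their week 4 difference at both other times included ASAP3, an activator of Arf GTPases (-0.03, 0.42 and 0.02). Among them too were PTGER4, a prostaglandin E receptor (0.04, 0.42 and -0.10), PRR12 (-0.01, -0.55 and -0.10) and NUP98, a nucleoporin (-0.01, -0.33 and -0.12). ASAP3 ran from 7.37 over 7.785 to 7.90 in controls and from 7.81 over 8.185 to 8.51 in treated animals, and 4 of 6 treated animals lay above all controls. A second probe set of ASAP3 gave 0.37 ± 0.11. Another probe set of PTGER4 gave 0.105 at baseline, 0.23 ± 0.15 at week 4 and -0.30 at week 12, the furthest from 0.

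The arms did not overlap at all in 7 genes that were higher (0.0513% of tested genes) and in 4 that were lower (0.0293%). There had been 16 and 6 such genes at baseline, before any treatment, and there were 5 and 5 at week 12. The higher ones were SULT1A1 (0.47), the stress-response factor ATF5 (0.39), the endolysosomal peptide transporter SLC15A4 (0.34), FAM83C-AS1 (0.28), WDR83 (0.24), WDR31 (0.18) and the chromatin cofactor HCFC1 (0.17). The lower ones were FGF13 (-0.80), TGFBRAP1 (-0.27), the selenophosphate synthetase SEPHS1 (-0.25) and the G protein subunit GNAQ (-0.24). FGF13 was the only one of the 11 whose arms did not overlap at another time, namely week 12. Of the 11 genes 7 had at least 50% of their difference at baseline, a share that was not counted over all tested genes.

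SULT1A1 ran from 11.39 over a median of 11.475 to 11.66 in controls and from 11.88 over 11.955 to 12.11 in treated animals. The arms did not overlap. Another probe set gave 0.49 ± 0.11, without overlap too, and the last gave 0.03 ± 0.08. At baseline SULT1A1 had been at 10.75 to 11.39 and 11.31 to 11.93, which overlap narrowly. SULT1A1 has close paralogs, and which of them its probe sets read was not tested.

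FGF13, an intracellular member of the fibroblast growth factor family, ran from 6.82 over 7.215 to 7.47 in controls and from 5.39 over 6.635 to 6.79 in treated animals, with treated replicate 1 the lowest. The difference was -0.80 ± 0.24 at week 4 (adjusted p 0.878), -0.66 at baseline and -0.86 at week 12.

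TGFBRAP1, which binds receptors of transforming growth factor beta, ran from 5.92 over 5.975 to 6.07 in controls and from 5.5 over 5.74 to 5.81 in treated animals. Its difference of -0.27 ± 0.07 had no counterpart at baseline (-0.01) or week 12 (-0.01). One other probe set gave -0.15 and another 0.09.

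Of the 31 genes in either set, the 24 of smallest p and the 11 without overlap, 16 had another probe set bright enough to compare. In 11 of the 16 every other probe set had the same sign, and in 5 at least 1 had the opposite sign. In 11 of the 16 at least 1 other probe set gave under 50% of the difference or the opposite sign, among them GRK3, TBX3 and SLC15A4.

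**Figure D5:**
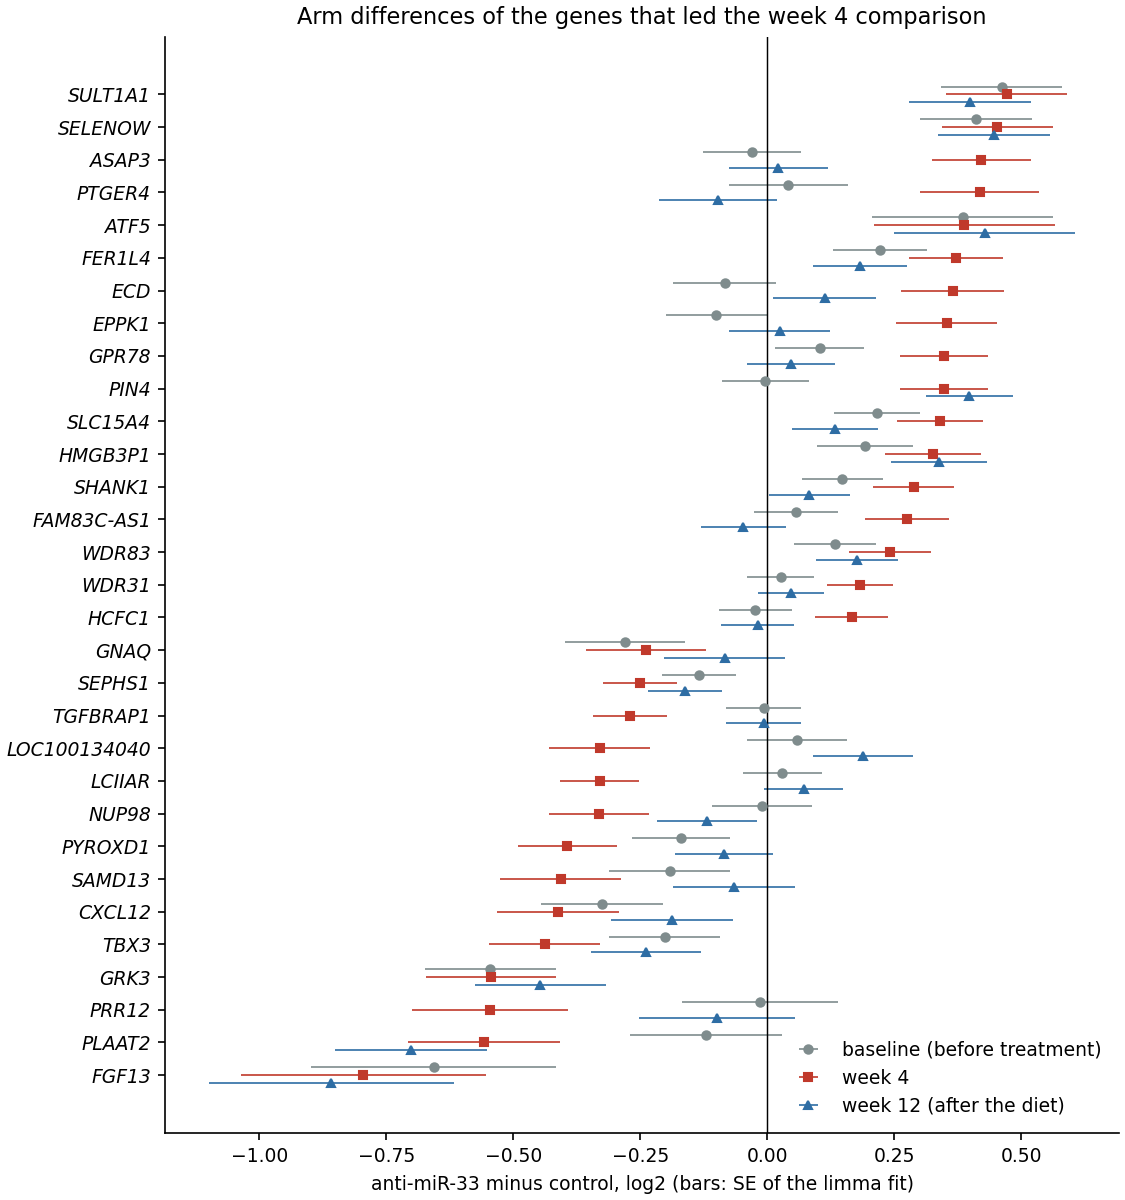
Difference between arms in log2 (points; bars are the SE of the limma fit) at baseline, week 4 and week 12 for the 31 genes of smallest p or without overlap at week 4. In the probe sets drawn, GRK3, SELENOW, SULT1A1, ATF5 and FGF13 have similar gaps at all 3 times. In these probe sets ASAP3, PTGER4, PRR12 and TGFBRAP1 leave 0 by more than the SE at week 4 alone.

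When dim probe sets were kept, 19775 genes were tested and FGF9, a secreted growth factor, was the 1 gene past the threshold. Its difference was 0.43 ± 0.08 (limma, adjusted p = 0.0295), with controls at 3.57 to 3.90 and treated animals at 4.06 to 4.39, which do not overlap. The arms had differed by -0.12 at baseline and by -0.09 at week 12. The mean of its probe set over all arrays, 3.81, lay below the filter of 4.46, so the level behind this call is one at which the array reads little signal.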

How the data were processed

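Liver RNA from 12 monkeys was measured on 36 arrays. The authors deposited log2 values of 54675 probe sets, made with RMA per the submitters' processing notes, which corrects background, normalizes arrays and summarises probes. The sources used here do not give its version or say whether all arrays were run together. A shift shared by most transcripts would have been removed by it. Genes came from the platform annotation: 41091 probe sets had 1 gene, 1801 several, 11721 none and 62 were array controls. Each of 19775 genes was read from its probe set of highest mean, and means below 4.4586 (the median) were left out, leaving 13634 genes, 5534 of them with more than 1 probe set.

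One limma model (limma 3.58.1, R 4.3.3) covered all arrays, with a mean for each of 6 groups and a random animal effect (correlation 0.151), two-sided, with Benjamini-Hochberg adjustment over all genes at 0.05. The number of arrays limits the precision. ABCA1 and CROT also had an exact permutation test. Animal identifiers in later labels gave the arm of baseline arrays. The script was tested on simulated data.

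The genes, the 31 lists and the tests were chosen with earlier results of these data known. Named genes were ABCA1 and CROT, the 12 of smallest p and up to 10 without overlap in each direction, tested members of 9 lists of miR-33 and sterol biology, and up to 5 members of smallest p in the other lists. Genes such as FGF9, and members of other lists named for their role, such as ACADL, were chosen after their values were seen. Alternatives were the arrays fitted, variance moderation, RNA quality as a covariate, probe set choice, scaling, filter, blocks and leaving out each array. Another probe set was compared only where it passed the filter.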

Additional observations from a re-analysis of the deposited data

Results flagged for a closer look

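In 11 of 130 sets of 6 values screened (8.46%), 1 animal lay far from the other 5 of its arm. The cut gives about 1 in 20 for independent normal values. These sets share arrays and most of their genes were picked in the same arrays, so the screen cannot show an excess. Control replicate 1 had 8.45 for SEPHS1, where the next value was 8.26. Control replicate 3 had 8.05 for ATF5, below 8.67, and ATF5 without it differed between the arms by 0.31 in place of 0.39. Control replicate 4 had a mean of 6.67 (6.6739) over the endothelial markers, above 6.15, and without it the median difference of that list was 0.22 in place of 0.09.

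Treated replicate 3 was far from its arm in 3 genes, with 8.85 for CROT above 8.51, 8.51 for SLC15A4 below 8.73 and 5.5 for TGFBRAP1 below 5.7. Treated replicate 2 had 7.47 for ECD, above 6.96, and treated replicate 6 had 4.83 for EPPK1, below 5.21. Treated replicate 6 also had a mean of 8.036 over the stellate markers, above 7.66. Treated replicate 1 had means of 9.0294 over bile acid synthesis and transport, above 8.85, and 9.3263 over xenobiotic metabolism, above 9.13.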

How the results depend on the processing

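The direction of ABCA1 and CROT held under every alternative run, from 0.45 to 0.64 for ABCA1 and from 0.16 to 0.26 for CROT, and neither passed the adjusted threshold in any. The count of genes past the threshold at week 4 stayed at 0, except for 1 (FGF9) with no filter on dim probe sets, and was 0 with each array left out. The count for the change from baseline stayed at 0, except for 1 (KIT, adjusted p 0.0183, limma) with the animal as a fixed block. The count of genes without overlap, 11, became 17 with quantile normalization, 22 with no filter, and 18 to 43 with 1 array left out, the highest without treated replicate 6; fewer arrays make that criterion easier to meet. The replicate numbers do not pair the arms: deviations of same-numbered animals correlated between -0.10 and 0.20. With the replicate block, 0 genes passed, and ABCA1 was 0.55 and CROT 0.225. Medians of the sterol target, microRNA machinery, fatty acid oxidation, interferon, endothelial and cholangiocyte lists kept their sign under every alternative run, and those of the oxidation, kinase and growth targets of miR-33 did not. The 24 genes of smallest p kept their sign wherever they were tested, which was 15 of them under the filter at the 75th percentile. They were picked for their p in these same arrays, so this was largely set by the choice and says little. Among genes at an unadjusted p under 0.05 the share that was higher was 56.8% with centred arrays, 58.9% with quantile normalization and 51.8% without control replicate 5. Signal near background limits FGF9 and other dim probe sets, and probes made for human transcripts may read low in this species.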
